A study of Mus musculus with 24 samples.

Results

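Gene expression was compared between T- and placebo-treated lacrimal glands of MRL/lpr mice, on CodeLink (CL) and on Affymetrix (Affy) arrays. The arrays were chosen by the strain, gland and treatment in their titles, which gave 12 of the 24 arrays of the series, 3 placebo pools and 3 T pools on each platform. All mice were female MRL/lpr mice, homozygous for the lpr mutation that disables the death receptor Fas, and they differed only in the pellet they carried. Each pool held the glands of 6 mice. The labels gave 18 days of treatment, the methods gave 20 to 21 days with pellets of 10 mg T or of vehicle in mice 17 to 18 weeks old, and no test used the length of treatment. The methods name the glands as exorbital. Both platforms received RNA of the same pools, so they are a pair of measurements of 6 pools and not independent replicates. Whole glands were pooled, with the duct, fat, vessel and inflammatory cells that an autoimmune lacrimal gland holds.

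The lacrimal gland is a tubuloacinar gland whose acinar cells secrete proteins, water and ions into tears, while its ducts adjust the fluid. T is a steroid hormone that changes transcription in its target tissues, and glands of male and female rodents differ in acinar structure and in secreted proteins. In mice, androgens are classically known to raise kallikreins and lipocalins in salivary glands, kidney and liver.

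CL values are spot signals divided by the median of the array, and Affy values are probe set signals brought here to a trimmed mean of 500. Signals below a floor (0.5 on CL and 70.5 on Affy) were raised to it before taking log2. Each log2 change is the T mean less the placebo mean, given with its standard error (SE). A gene was called when its limma p, adjusted over all probes of the platform, was under 0.05. The values of a gene are those of its brightest probe. Where every pool of a group was near background, the fold is a lower bound, written as at least that value. The annotation named a gene for 11377 of 17440 CL probes, and a single gene for 20393 of 22690 Affy probe sets.

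Between 48.4% and 61.0% of spots on these CL arrays were near background, the most in T pool 3. Replicate arrays correlated at 0.940 to 0.982 on CL and at 0.940 to 0.971 on Affy, and none were identical. The Affy factors needed to reach the common scale were 11.1 to 15.5 for placebo pools and 15.8 to 22.6 for T pools, so every T array was dimmer than every placebo array as deposited. Acinar markers were detected in all pools. Aqp5, the apical water channel of acinar cells, read 51.2, 58.2 and 50.3 in placebo pools and 49.6, 40.3 and 38.5 in T pools on CL (log2 change -0.32, adjusted p = 0.371). On Affy it read 8730, 10320 and 8198 against 6998, 7603 and 8601 (log2 change -0.23, adjusted p = 0.629), with groups that overlapped there and not on CL. In pooled whole glands, fewer cells of a type and less RNA per cell cannot be told apart.

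Placebo pool 1 stood apart from all other pools through salivary transcripts. Bpifa2, a secreted protein of the parotid gland, read 2239 there on CL against at most 2.99 in the other MRL/lpr pools. On Affy it read 59050 against 11.3 to 86.3. Amy1, salivary amylase, read 62440 in placebo pool 1 on Affy against 123 and 148 in the other placebo pools. Amy1 was not called with all pools. Without placebo pool 1 it was higher with T on Affy (log2 change 3.71, adjusted p = 9.27e-06). On CL its change without that pool was 1.72 and was not called (adjusted p = 0.274). The summed signal of the salivary list was 175300 in this pool and 2995 to 16600 in the other 5 pools on Affy. On CL it was 2662 against 17.6 to 25.1. Each count below was therefore also made without placebo pool 1, and is given where it bears on a result.

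On CL, T was associated with a higher signal of 938 probes (6.89% of the 13616 tested) and a lower signal of 769 (5.65%). On Affy, 594 probe sets were higher (3.32% of 17891) and 640 lower (3.58%). The changes were at least 2-fold for 1182 of the CL calls and 915 of the Affy calls. The T and placebo pools did not overlap for 1703 of 1707 CL calls and 1230 of 1234 Affy calls. Calls were picked by a small p, which with 3 pools a group nearly always goes with separate groups, so this is no further evidence. Of all 13616 CL probes tested, T pools lay above all placebo pools for 2299 and below them for 2441. Of all 17891 Affy probe sets, those numbers were 2461 and 2605. The median log2 change of all probes was -0.02 on CL and 0.02 on Affy. Without placebo pool 1 the counts were 743 higher and 489 lower on CL, and 370 higher and 339 lower on Affy.

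Both platforms tested 6808 genes, of which 131 were called higher and 155 lower on each when any probe of a gene counts, and 7 were called in opposite directions. Those numbers were 20.7% of the genes called higher on either platform and 20.4% of those called lower. By brightest probe, 123 were higher on both (1.81%) and 133 lower (1.95%). The plot of the changes on both platforms shows the members of these sets and the genes on which the platforms differed.

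**Figure D1:**
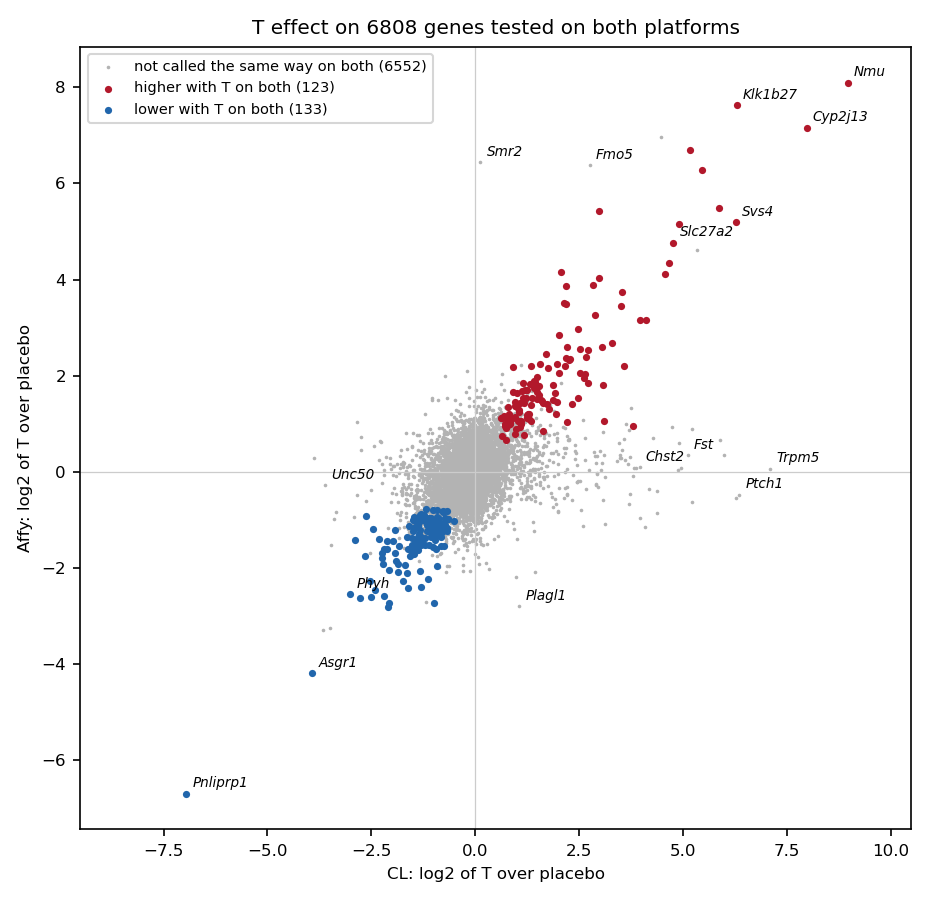
Log2 change of each of the 6808 genes tested on both platforms, by its brightest probe, with CL on the x axis and Affy on the y axis. Red points are the 123 genes called higher and blue points the 133 called lower on both, grey points all others, and labels such as Trpm5 and Ptch1 lie far from 0 on the CL axis only.

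The glandular kallikreins held the highest share of called members among the lists of secretory, metabolic, hormonal and epithelial genes on both platforms. These are serine proteases of the Klk1b family, stored in the granular ducts of the mouse salivary gland and known for processing growth factors and kininogens. On CL 5 of 8 tested members were higher and 0 lower, where 6.64% of all genes were called higher and 6.44% lower. On Affy 7 of 9 were higher and 0 lower, where 3.57% of all genes were higher and 3.83% lower. Those shares of all genes on each platform are the reference for the counts of every list below. The median change of the members was 4.29 on CL and 4.15 on Affy.

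Klk1b27 read 3.85, 0.429 and 0.382 in placebo pools 1, 2 and 3 on CL and 75.3, 63.9 and 97.1 in T pools 1, 2 and 3 (log2 change 6.30, SE 0.724, adjusted p = 0.000109). On Affy it read 4.41, 7.77 and 3.32 against 12220, 12850 and 17160, at least 197.4-fold higher (adjusted p = 2.81e-11). The groups were far apart on both platforms, and placebo pool 1 was the highest placebo pool on CL only. Klk1b1 read 9.47, 7.28 and 8.22 on CL against 222.3, 211.1 and 321.9 with T (log2 change 4.90, SE 0.265), and was at least 35.5-fold higher on Affy. Klk1b11 was the kallikrein with the most even placebo values, 882, 881 and 910 on Affy against 16750, 16810 and 21070 with T (log2 change 4.34, SE 0.255, adjusted p = 3.96e-09). On CL it rose by 4.67 on the log2 scale.

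Klk1b8 rose by 4.12 on CL and 3.16 on Affy, and Klk1b21 by 2.08 and 4.16. By brightest probe, 5 members were thus called on both platforms. Klk1b24 was called on Affy, where it read 55.8, 32.6 and 9.96 against 8210, 8860 and 9529, at least 125.5-fold higher. On CL its brightest probe was not called (adjusted p = 0.0514). That probe read 155.4 in placebo pool 1, 1.48 and 1.68 in the other placebo pools and 146.3, 155.0 and 183.7 with T. Placebo pool 1 lay among the T pools there. Without that pool the change of the same probe was 6.67 (adjusted p = 3.24e-06). The other of the 2 CL probes for Klk1b24 was called higher with all pools. Klk1b16 was called on Affy only (at least 2.43-fold higher, adjusted p = 0.0279), and lost its call without placebo pool 1 (adjusted p = 0.0839).

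Klk1b5 on CL and Klk1 on Affy, which were not called, were high in placebo pool 1. Klk1b5 read 138, 0.705 and 0.890 in placebo pools on CL and 2.21, 2.88 and 3.23 in T pools, a change of -0.69 that was not called and that was 1.79 (adjusted p = 0.00285) without placebo pool 1. Klk1, true tissue kallikrein, read 11870, 6.21 and 5.53 in placebo pools on Affy against 82.1, 48.4 and 214.5 in T pools and was not called. Klk1b16 on CL (log2 change 0.43) and Klk1b5 on Affy (0.82) were not called with all pools. Nor were they called without placebo pool 1 (0.43 and 1.03). The summed signal of the list was 319, 21.4 and 23.2 in placebo pools and 603, 635 and 838 in T pools on CL, and 13010, 1165 and 1023 against 42010, 42780 and 54100 on Affy. All T pools exceeded placebo pool 1 as well. Without that pool, 7 members were higher on CL and 6 on Affy. The part of salivary RNA in the placebo values was not tested, and the members of this family resemble each other closely, so that a probe can read more than its own gene.

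**Figure D2:**
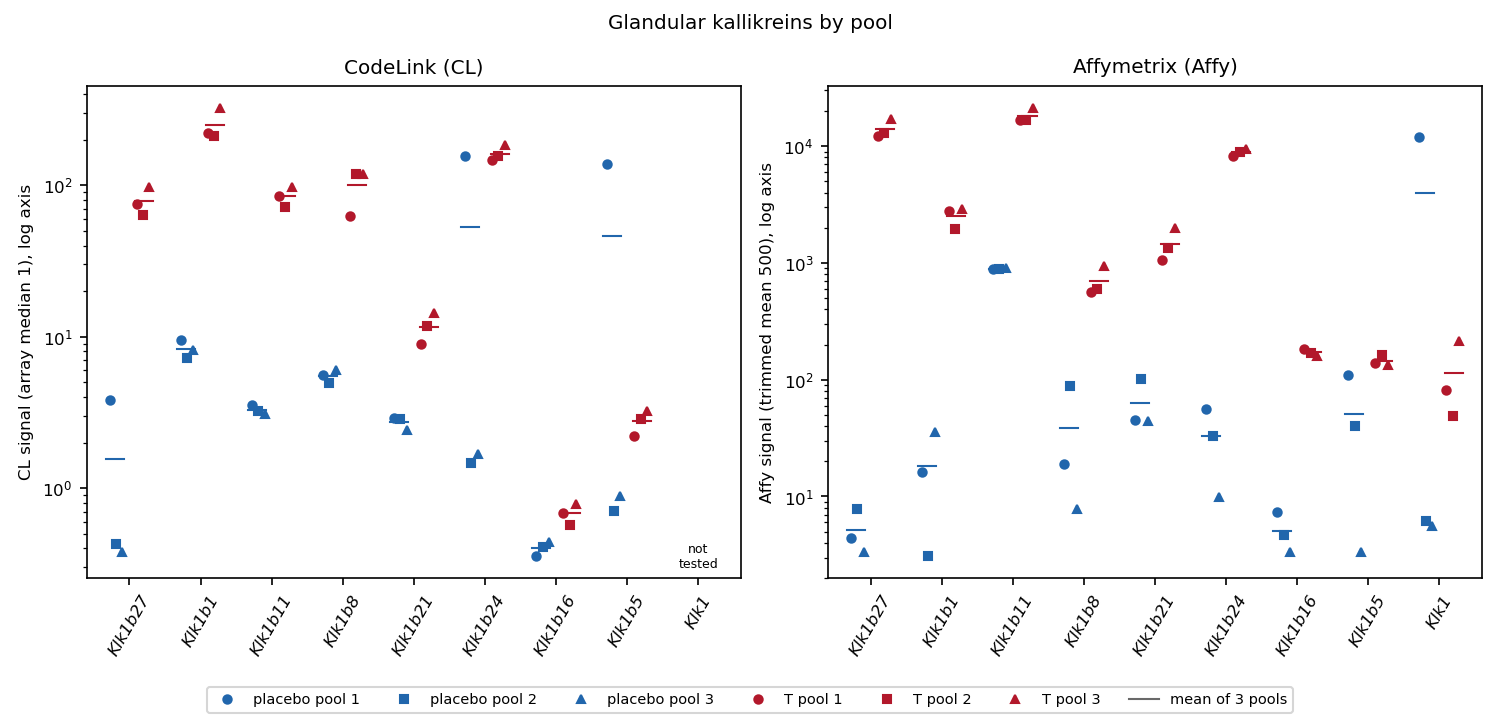
Signal of 9 kallikreins in each placebo pool (blue) and T pool (red) on CL (left) and Affy (right), on log axes, with a bar at the mean of 3 pools. T pools lie above all placebo pools except for Klk1b24 and Klk1b5 on CL and Klk1 on Affy, where placebo pool 1 is at or above them.

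The kallikrein genes lie side by side on chromosome 7, and the RefSeq promoter sequences of 8 of the measured members (GRCm38.p6, plus strand) share stretches just before their start sites. They are shown for Klk1b27, Klk1b1 and Klk1b11, which rose on both platforms, and for Klk1b5, which was called on neither. Klk1b27 is shown at chr7:44052178-44052273, Klk1b1 at chr7:43966624-43966719, Klk1b11 at chr7:43995742-43995837 and Klk1b5 at chr7:44216336-44216431. Capitals mark an 11-base stretch that all 8 promoters hold.
Klk1b27: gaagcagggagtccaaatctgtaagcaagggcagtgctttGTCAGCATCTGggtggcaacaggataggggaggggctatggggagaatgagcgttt
Klk1b1: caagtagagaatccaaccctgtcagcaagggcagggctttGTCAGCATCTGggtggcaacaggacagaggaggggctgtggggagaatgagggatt
Klk1b11: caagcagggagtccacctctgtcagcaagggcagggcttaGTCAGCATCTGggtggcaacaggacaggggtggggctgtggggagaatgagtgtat
Klk1b5: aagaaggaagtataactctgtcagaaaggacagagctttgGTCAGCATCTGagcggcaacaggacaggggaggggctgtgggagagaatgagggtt

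The stretch was found in 15 of the 32851 promoters in the table, read as 250 bases before each start site, and 12 of the genes that hold it are kallikreins of this family. The paired androgen response element was searched as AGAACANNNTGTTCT on both strands. It was found in 3 of all promoters (0.00913%) and in none of the 8 kallikrein promoters. A single arm of it, TGTTCT or AGAACA, was found in 16.1% of all promoters and in 1 of the 8, that of Klk1b24. These matches are descriptions of short windows of sequence and do not describe binding.

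Some secreted proteins that are known from androgen-dependent glands of male mice were higher in T pools. Of 15 tested members of this list 3 were called higher on CL, and of 17 on Affy 6, with 0 lower on either platform and the rest not called. The summed level of the list was 4555, 5852 and 8985 in T pools on CL and overlapped the placebo pools at 5150 to 5767. Mup5, a lipocalin of the major urinary protein family that binds pheromones, read 1377, 239 and 262 in placebo pools on Affy and 115400, 131400 and 170400 in T pools (log2 change 8.28, SE 0.755, adjusted p = 1.78e-06). Placebo pool 1 was the highest placebo pool, and was far below every T pool. Smr2, an androgen-regulated product of the submaxillary gland, read 99.9, 17.1 and 85.2 against 6865, 6629 and 8581 on Affy (log2 change 6.44, SE 0.204), with all 3 of its probe sets called. The single CL probe for Smr2 read between 7.53 and 11.3 in all 6 pools and was not called. Prol1, a proline-rich protein that was placed, like Smr2, on the salivary list, read 253, 49.7 and 3.32 against 2064, 2551 and 3920 on Affy (log2 change 4.67, SE 0.453).

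Svs4 and Svs2, seminal vesicle secretory proteins that form the copulatory plug in rodents, were near background in every placebo pool on both platforms. Svs4 read 0.723, 0.796 and 0.887 in placebo pools on CL and 56.6, 78.2 and 54.5 with T, at least 63.3-fold higher. On Affy the fold of Svs4 was at least 36.6. Svs2 was at least 5.89-fold higher on CL and at least 13.4-fold higher on Affy. Csn2, the milk protein beta-casein, was at least 3.46-fold higher on CL (adjusted p = 1.28e-06). Lcn2, a lipocalin that binds bacterial siderophores, read 1588, 1480 and 1753 against 5210, 6361 and 6641 on Affy (adjusted p = 0.0329), groups that did not overlap, but this call was lost in 10 of 15 alternatives. Without placebo pool 1 its adjusted p was 0.108.

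Tear proteins and secreted digestive enzymes did not move in a common direction. On CL 2 of 23 were higher and 2 lower (8.7% each, all genes 6.64% and 6.44%). On Affy 1 of 25 was higher and 2 lower (4.0% and 8.0%, all genes 3.57% and 3.83%). Apof, an apolipoprotein, rose by 1.71 on CL and 2.45 on Affy. Pnliprp1, a relative of pancreatic lipase, fell by 6.96 on CL and 6.69 on Affy, and its T pools differed widely among themselves, with 2284, 44.6 and 4.52 on Affy against 20950 to 28130 in placebo pools. Pnliprp2 rose on CL only, at least 1.56-fold. Pigr, the receptor that carries polymeric antibodies into tears, was lower on CL with 58.4, 69.3 and 75.0 in placebo pools against 29.6, 27.8 and 5.53 in T pools (log2 change -2.02, adjusted p = 0.0204). T pool 3 was far below the other T pools there. On Affy Pigr read 43550, 35410 and 43220 against 26300, 20650 and 33130 by its brightest probe set, which was not called (log2 change -0.63, adjusted p = 0.24), while the other of its 2 probe sets was called lower. The CL call was lost without placebo pool 2 or 3. Without placebo pool 1 the Affy counts were 2 higher and 1 lower. The summed level of the list was lower in all T pools than in all placebo pools on both platforms, 989 to 1050 against 1701 to 2357 on CL and 248400 to 273300 against 286500 to 387900 on Affy. That sum includes Pnliprp1. On Affy the lowest placebo sum, that of pool 3, exceeded the highest T sum by less than the 28130 that Pnliprp1 read in that pool. Without Pnliprp1 the Affy ranges would therefore overlap.

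Cytochrome P450 genes, which encode heme monooxygenases of steroids, fatty acids and drugs, changed in both directions. On CL 5 of 32 were higher and 3 lower (15.6% and 9.4%, all genes 6.64% and 6.44%). On Affy 5 of 33 were higher and 1 lower (15.2% and 3.0%, all genes 3.57% and 3.83%). Cyp2j13 was at least 128.4-fold higher on CL and at least 143-fold on Affy. Cyp4a12a, a fatty acid hydroxylase that is higher in male than in female mouse kidney, read 88.2, 194 and 117 in placebo pools and 5678, 6127 and 3211 in T pools on Affy (log2 change 5.25, SE 0.286, adjusted p = 1.39e-09). Cyp2b10, known for its induction by phenobarbital in liver, read 2058, 2537 and 2333 against 9670, 10690 and 8353 (log2 change 2.05, SE 0.192), with 3 of 3 probe sets called. None of these Affy values overlapped between groups.

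Cyp27a1, a mitochondrial sterol hydroxylase of bile acid synthesis, rose on both platforms. It read 9.26, 6.96 and 8.70 against 23.3, 28.3 and 25.1 on CL (log2 change 1.63, SE 0.198) and 1144, 972 and 1202 against 2745, 3206 and 3017 on Affy (log2 change 1.44, SE 0.194). Cyp11b2, aldosterone synthase, was called higher on both platforms, but all placebo pools were near background and its Affy call was lost in 12 of 15 alternatives. Cyp2f2, a monooxygenase known from the airway, fell on both platforms, with 127, 125.6 and 108.8 against 52.5, 54.0 and 49.1 on CL (log2 change -1.21, SE 0.146) and 17870, 18020 and 12980 against 5522, 5557 and 5873 on Affy (log2 change -1.51, SE 0.213). The pools did not overlap for Cyp27a1 or Cyp2f2. Cyp2a5 fell on CL (log2 change -1.30), and so did Cyp4f15, at least 2.06-fold, to near background in all T pools.

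Among conjugating and redox enzymes, 7 of 53 were higher and 7 lower on CL, and 6 of 54 higher and 9 lower on Affy. The lower members included several glutathione transferases, which couple electrophiles to glutathione. Gstm1 fell by 0.66 on CL and 0.97 on Affy, and Gstt1 fell by 0.79 and 0.82. Gsta3, Gsta4 and Gstm5 fell on Affy (log2 changes -0.95, -1.03 and -0.90) and Mgst1 on CL (-0.88). Mgst2 was called lower on CL, where its T pools were all near background. No glutathione transferase was called higher. Gstm1 and Gstt1 lost their calls on both platforms without placebo pool 1, with adjusted p of 0.106 and 0.0843 on CL, and 0.06 and 0.126 on Affy. Gsta4, Mgst1 and Mgst2 also lost theirs. The counts for the whole list without that pool were 6 higher and 3 lower on CL, and 4 higher and 4 lower on Affy.

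The flavin monooxygenases, which oxidize nitrogen and sulfur compounds, moved apart. Fmo5 read 239.5, 116.5 and 146.0 in placebo pools on Affy and 12070, 13730 and 14390 in T pools (log2 change 6.39, SE 0.351, adjusted p = 1.52e-09). On CL, T pools 1 and 2 read 9.78 and 7.90 while T pool 3 read 0.314, close to the placebo pools at 0.238 to 0.311, and the gene was not called (adjusted p = 0.0528). Fmo1 fell by 2.63 on CL and 0.91 on Affy, where 10 of 15 alternatives lost the call. Aldh3a2, which oxidizes fatty aldehydes, rose by 1.98 on CL and 1.46 on Affy. Sult1a1, a phenol sulfotransferase, rose by 1.29 and 1.20, and Aldh7a1, of lysine breakdown, by 0.75 and 0.66. With placebo pool 1 left out, Aldh7a1 was called on neither platform and Sult1a1 on CL only. Cbr2, a carbonyl reductase known from lung, fell by 1.05 and 0.96. Sult1e1, which sulfates and so inactivates estrogens, was at least 4.19-fold higher on CL (adjusted p = 0.000369) and not called on Affy (adjusted p = 0.0984).

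Enzymes that convert steroids were called in small numbers, 2 of 17 higher and 1 lower on each platform, or 1 and 1 on Affy without placebo pool 1. With all pools that was 11.8% and 5.9%, against 6.64% and 6.44% of all genes on CL and 3.57% and 3.83% on Affy. Akr1c18, which inactivates progesterone, read 58.9, 45.9 and 46.4 in placebo pools on CL and 31.4, 25.8 and 21.3 in T pools (log2 change -0.95, SE 0.189). On Affy it read 8922, 8137 and 9232 against 3576, 2723 and 2405 (log2 change -1.61, SE 0.206, adjusted p = 8.11e-05). All T pools were below all placebo pools on both platforms. Hsd17b11, a dehydrogenase of steroids on lipid droplets, rose on both. It read 3613, 3877 and 3588 against 9764, 10950 and 14560 on Affy (log2 change 1.65, SE 0.242), and was at least 3.20-fold higher on CL. Hsd3b5, a ketosteroid reductase of male mouse liver, read 0.253, 0.665 and 0.540 against 4.63, 7.10 and 15.3 on CL, at least 8.09-fold higher (adjusted p = 1.19e-05), with T pools that spanned a wide range. Hsd17b6 was called higher on Affy only, with all placebo pools near background, and lost its call without any 1 of them.

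Hormone receptors and their partners were called at 2 higher and 5 lower of 29 on CL, and 2 higher and 0 lower of 37 on Affy. Mrap, the accessory protein that carries the corticotropin receptor to the cell surface, rose by 5.45 on CL and was at least 78.1-fold higher on Affy. Nr4a1, an orphan nuclear receptor of the immediate early response, rose by 0.90 on CL and 1.13 on Affy. It lost its CL call without placebo pool 1 (adjusted p = 0.0915). The 5 lower members on CL were Avpr2, the renal vasopressin receptor (log2 change -2.44), Fshr, the follicle-stimulating hormone receptor (at least 1.99-fold), Nr1h3, a sterol-sensing nuclear receptor (at least 1.04-fold), Pparg, a nuclear receptor of fat cell formation, and Nr2f1, an orphan nuclear receptor. All T pools of the last 4 were near background on CL, which leaves no fold for Pparg and Nr2f1. On Affy all 5 were tested and none was called. Nr1h3 and Nr2f1 lost their CL calls without placebo pool 1, where the list had 1 higher and 3 lower members.

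Of neuropeptide and monoamine genes, 4 of 33 were higher and 3 lower on CL, and 3 of 34 higher and 1 lower on Affy. Nmu, a peptide that contracts smooth muscle, was at least 255.1-fold higher on CL and rose by 8.10 on Affy. Ddc, the decarboxylase that makes dopamine and serotonin, was at least 18.3-fold higher on CL and at least 104.3-fold on Affy. Cpe, the carboxypeptidase that trims prohormones in secretory granules, fell on both platforms. It read 10.6, 14.2 and 9.48 in placebo pools and 2.62, 2.12 and 1.41 in T pools on CL (log2 change -2.51, SE 0.248), and 1832, 1858 and 1627 against 401, 250 and 251 on Affy (log2 change -2.59, SE 0.274). The groups were clearly apart on both. Tac1, the precursor of substance P, fell on CL (log2 change -1.11, adjusted p = 0.00855) and was not called on Affy (log2 change -0.64, adjusted p = 0.131). Npy was called higher on Affy (at least 2.58-fold, adjusted p = 0.0183), where all placebo pools were near background, and lost its call in 7 of 15 alternatives. On CL it was not called (adjusted p = 0.782).

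Few secretagogue receptors and calcium signaling genes, through which nerves trigger tear secretion, were called, as was so for all genes. On CL 0 of 42 were higher and 3 lower (0.0% and 7.1%, all genes 6.64% and 6.44%). On Affy 4 of 51 were higher and 1 lower (7.8% and 2.0%, all genes 3.57% and 3.83%). Leaving out placebo pool 1 gave 1 lower on CL, and 2 higher on Affy. Ncald, a neuronal calcium sensor, fell by 2.10 and 2.81. Itpr3, a calcium release channel of exocrine acinar cells, read 601, 503 and 566 in placebo pools and 1010, 1377 and 1364 in T pools on Affy (log2 change 1.16, SE 0.224, adjusted p = 0.00383), without overlap. P2rx4, an ATP-gated channel, rose by 0.71 on Affy, a call that was lost whichever pool was left out. Stim1, the calcium sensor of the endoplasmic reticulum, and Rgs16, a regulator of G protein signals, were called higher on Affy but lost their calls in 7 and in 5 of 15 alternatives. None of these 4 genes was called on CL, where Itpr3 was not tested.

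Fatty acid and triglyceride synthesis genes were called higher more often than lower, 3 higher and 1 lower of 21 on CL and 6 higher and 2 lower of 30 on Affy, although the median of the list was 0.13 on CL and -0.12 on Affy. The shares were 14.3% and 4.8% on CL (all genes 6.64% and 6.44%) and 20.0% and 6.7% on Affy (all genes 3.57% and 3.83%). Thrsp, a nuclear protein that promotes lipogenesis, read 314, 213 and 160 in placebo pools and 8570, 7818 and 12520 in T pools on Affy (log2 change 5.42, SE 0.247, adjusted p = 1.13e-10). On CL it was near background in placebo pools and read 0.930, 5.05 and 12.9 in T pools, at least 4.00-fold higher (adjusted p = 0.0135). T pool 1 was the lowest T pool there, while on Affy the T pools were close. Without T pool 2 the CL call was lost (adjusted p = 0.0536). Fasn, fatty acid synthase, read 6.82, 7.11 and 6.17 against 18.5, 26.4 and 14.7 on CL (log2 change 1.53, SE 0.272) and 511, 820 and 527 against 1799, 2696 and 1890 on Affy (log2 change 1.79, SE 0.253). Its groups did not overlap.

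Dgat2, which makes triglycerides, read 701, 654 and 753 against 3150, 3107 and 3624 on Affy (log2 change 2.23, SE 0.176, adjusted p = 2.68e-07). On CL its T pools also lay above its placebo pools, and it was not called (adjusted p = 0.0787). Gpam, an acyltransferase of glycerolipid synthesis, rose by 0.83 on Affy, and Scd1, a fatty acid desaturase, by 0.79. Scd1 lost its call without placebo pool 1 (adjusted p = 0.0764). Scd3, a desaturase of the Harderian gland, was near background in placebo pools and was called higher on both platforms, at least 1.11-fold on CL and at least 3.21-fold on Affy. The CL call of Scd3 was lost in 10 of 14 alternatives, among them 5 of the 6 left-out pools. Slc27a2, a very long chain acyl-CoA synthetase, read 15.7, 23.1 and 23.1 against 594, 629 and 460 on CL and 1876, 2659 and 3648 against 64570, 73160 and 78030 on Affy, a log2 change of 4.77 on each. Elovl6, an elongase, fell on CL (log2 change -1.55), and Acsl5 and Far1, which activate and reduce fatty acids, fell on Affy (-0.99 and -1.33).

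Fatty acid oxidation genes were called at 2 higher and 2 lower of 38 on CL and 4 higher and 4 lower of 45 on Affy. That was 5.3% each way on CL, below all genes at 6.64% and 6.44%, and 8.9% each way on Affy (all genes 3.57% and 3.83%). Phyh, the peroxisomal hydroxylase of phytanic acid, read 60110, 64700 and 61690 in placebo pools on Affy and 18810, 7121 and 8958 in T pools (log2 change -2.55, SE 0.363). On CL it fell by 3.01. Acadm, the medium-chain acyl-CoA dehydrogenase of mitochondria, fell by 1.52 on each platform, with 8705, 9303 and 10050 against 3800, 3332 and 2746 on Affy (SE 0.178). Crat, a carnitine acetyltransferase, rose by 1.05 on CL and 1.29 on Affy, and lost its CL call without placebo pool 3 or T pool 1 or 2. Acaa1b, a peroxisomal thiolase, read 278, 283 and 245.5 against 2041, 2503 and 2303 on Affy (log2 change 3.08, SE 0.379, adjusted p = 5.22e-05). Acadvl and Crot fell on Affy (-1.01, a call lost without placebo pool 2 or T pool 2 or 3, and -0.90), and Acaa2 and Abcd3 rose (0.97 and 0.76). The summed level of the list was lower in all T pools, 73420 to 89670 against 131300 to 142400 on Affy. That sum includes Phyh. The lowest placebo sum was that of pool 1 and the highest T sum that of T pool 1. Phyh made up nearly all of the difference between those pools, so the fall of the sum is largely that of Phyh. Without placebo pool 1, 1 member was higher and 3 were lower on Affy, and Crat (adjusted p = 0.0518), Acaa2, Abcd3 and Crot were among the calls lost.

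Genes of sterol synthesis and handling were called lower more often than higher, 4 against 1 of 22 on CL and 4 against 2 of 30 on Affy. Lower members were 18.2% on CL and 13.3% on Affy (all genes 6.44% and 3.83%). Higher members were 4.5% and 6.7% (all genes 6.64% and 3.57%). The median of the list was -0.26 on CL and 0.01 on Affy, so Affy showed no common fall. Without placebo pool 1, Affy had 2 higher and 3 lower, with a median of 0.16. Pmvk, phosphomevalonate kinase of the mevalonate pathway, was called higher on both platforms. It read 5.36, 8.48 and 6.55 against 45.9, 36.1 and 33.8 on CL (log2 change 2.52, SE 0.267) and 190, 157 and 116 against 789, 926 and 955 on Affy (log2 change 2.55, SE 0.460). Fdft1, squalene synthase of the same pathway, fell on both, with 1325, 1111 and 1016 in placebo pools and 239.9, 220.8 and 191.9 in T pools on Affy (log2 change -2.40, SE 0.427). All T pools lay outside the range of the placebo pools for both genes. Hmgcs1, an early enzyme of the pathway, fell by 1.29 on Affy and was not called on CL (log2 change -0.46, adjusted p = 0.572). Sqle fell by 1.58 on Affy but lost its call without placebo pool 1 (adjusted p = 0.106). Dhcr7 of the same pathway and Insig2, which retains its sterol sensor, fell on CL (-1.01 and -1.15, the last with 1 T spot left out for quality), as did Idi1, at least 1.40-fold. By brightest probe set none of these was called on Affy, where 1 of 3 probe sets for Insig2 was called lower. Dhcr7 lost its CL call without placebo pool 2 or T pool 2. Npc2, which moves cholesterol out of lysosomes, fell by 1.05 on Affy and Abca1, a cholesterol exporter, rose by 1.01. On CL neither was called (log2 changes -0.75 and -0.06).

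**Figure D3:**
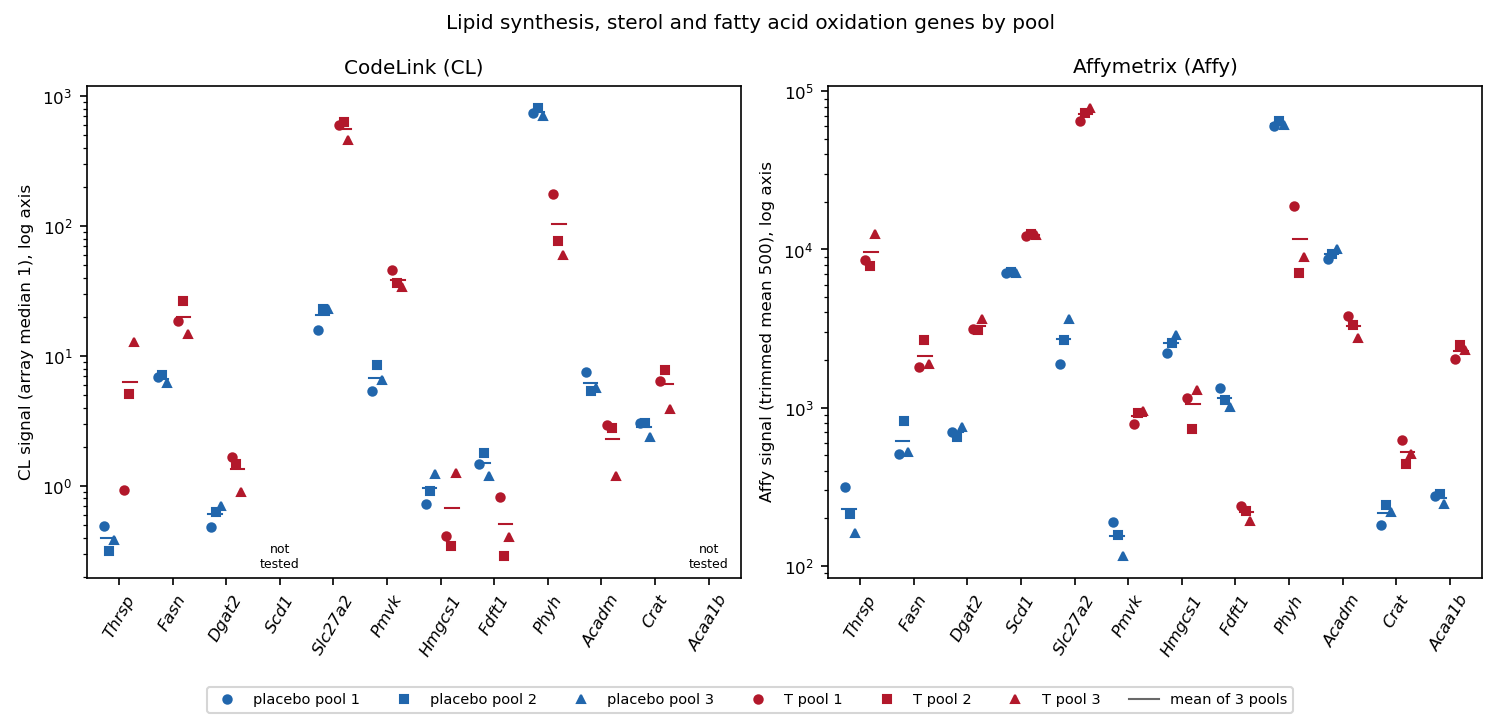
Signal of 12 genes of lipid synthesis (Thrsp, Fasn, Dgat2, Scd1, Slc27a2), sterol synthesis (Pmvk, Hmgcs1, Fdft1) and fatty acid oxidation (Phyh, Acadm, Crat, Acaa1b) in each placebo pool (blue) and T pool (red) on CL (left) and Affy (right), on log axes, with a bar at the mean of 3 pools. On Affy T pools lie above placebo pools for Thrsp, Fasn, Dgat2, Scd1, Slc27a2, Pmvk, Crat and Acaa1b and below them for Hmgcs1, Fdft1, Phyh and Acadm.

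Genes of water and ion transport, which set the volume and salt of tears, were called at 5 higher and 4 lower of 45 on CL, and 3 higher and 8 lower of 59 on Affy. The lower genes included members of the machinery that loads and releases chloride. Slc12a2, the basolateral cotransporter that brings chloride into secretory cells, read 16.0, 13.9 and 12.4 in placebo pools and 5.17, 7.14 and 3.75 in T pools on CL (log2 change -1.44, SE 0.302), and 10750, 8079 and 7879 against 4364, 4213 and 4654 on Affy (log2 change -1.0, SE 0.191). Atp1b3, a beta subunit of the sodium pump, read 32.6, 32.9 and 32.9 against 11.1, 7.90 and 3.85 on CL (log2 change -2.24, SE 0.300) and 3696, 3469 and 3859 against 1315, 1263 and 890 on Affy (log2 change -1.69, SE 0.221). T pool 3 was the lowest pool on both. Both genes fell on both platforms without overlap of the groups.

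Ano1, a calcium-activated chloride channel, read 1115, 623 and 659 against 278, 114 and 187 on Affy (log2 change -2.09, SE 0.357, adjusted p = 0.00141). Kcnn4, a calcium-activated potassium channel, fell by 1.41 on Affy and was not called on CL (log2 change -0.28, adjusted p = 0.432). Atp1b1, another beta subunit of the pump, fell by 1.96 on Affy, where 3 of 4 probe sets were called, and was not called on CL (log2 change -0.62, adjusted p = 0.135). Car2 and Car12, carbonic anhydrases, fell on Affy (-1.89 and -1.40), and Car12 lost its call without placebo pool 1 (adjusted p = 0.116). On CL, Car2 went the other way without a call, by 0.27, or 0.84 without placebo pool 1. Fxyd3, a regulator of the sodium pump, was called higher on both platforms (0.96 and 0.79) but lost its calls in 9 of 14 alternatives on CL and in 5 of 15 on Affy. Aqp9, an aquaglyceroporin, and Car5b, a mitochondrial carbonic anhydrase, rose on Affy (1.70 and 1.41), and Car5b lost its call without placebo pool 1. Trpm5 and Slc26a3 rose on CL only.

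Vesicle traffic genes were seldom called, 1 higher and 2 lower of 50 on CL and 0 higher and 2 lower of 61 on Affy. These were 2.0% and 4.0% on CL (all genes 6.64% and 6.44%) and 0.0% and 3.3% on Affy (all genes 3.57% and 3.83%). Snap91, an adaptor of clathrin coats, fell to signals near background in all T pools, at least 1.80-fold on CL and 3.80-fold on Affy. Stx6, a membrane fusion protein of the trans-Golgi network, read 1800, 1108 and 1150 against 551, 457 and 479 on Affy (log2 change -1.42, adjusted p = 0.0014), with 1 of 4 probe sets called, and was not called on CL (adjusted p = 0.557).

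Genes of protein folding in the endoplasmic reticulum were called at 4 higher and 4 lower of 56 on CL and at 7 higher and 1 lower of 66 on Affy. Edem1, which directs misfolded glycoproteins to degradation, read 3053, 3239 and 3517 in placebo pools and 7441, 6917 and 6284 in T pools on Affy (log2 change 1.07, SE 0.174). Sec61b, a subunit of the translocation channel, rose by 0.94, and Selenom, Sec11c and Derl3 by 0.93, 0.85 and 0.85. Sec11c and Derl3 lost their calls whichever pool was left out. Xbp1, the transcription factor of the unfolded protein response, was called lower on both platforms, with 75.7, 72.9 and 62.3 against 41.9, 38.2 and 19.4 on CL (log2 change -1.16) and 28910, 25020 and 25520 against 14810, 13090 and 9687 on Affy (log2 change -1.10). T pool 3 was the lowest on both. The Affy call of Xbp1 was lost in 8 of 15 alternatives and without placebo pool 1 (adjusted p = 0.128). The Affy median of the list was 0.29, against 0.02 for all probes, and on CL it was -0.05. Leaving out placebo pool 1 gave counts of 1 higher and 4 lower on CL and 3 higher and 0 lower on Affy. Unc50 fell by 3.62 on CL, and its brightest probe set on Affy changed by -0.27 (adjusted p = 0.781).

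Amino acid transporters and tRNA-charging enzymes were called at 1 higher and 2 lower of 32 on CL, and 4 and 4 of 40 on Affy. No member was higher on CL without placebo pool 1. Slc7a11, which imports cystine, and Slc7a8, a carrier of neutral amino acids, rose on Affy (2.31 and 1.87). Slc6a9, a glycine transporter, read 485, 514 and 441 against 118, 73.6 and 38.4 on Affy (log2 change -2.49, SE 0.312). Farsb, Cars and Lars, which charge tRNAs with phenylalanine, cysteine and leucine, fell on Affy (-1.24, -0.80 and -0.67), while Qars, which charges tRNA with glutamine, rose by 0.90 there. On CL, Farsb, Cars and Qars changed by -0.69, -0.825 and -0.34 and were not called. Slc7a8 lost its call without placebo pool 3 or T pool 2 or 3, Cars and Lars without placebo pool 2 or 3 or T pool 3, Cars also without T pool 2, and Qars without placebo pool 2. No member of this list was called on both platforms.

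Glycosylation genes, which build the sugars of secreted proteins and of glycolipids, were called at 4 higher and 4 lower of 48 on CL, and 2 higher and 3 lower of 57 on Affy, where 1 was higher and 1 lower without placebo pool 1. A pair of galactosyltransferases of the same family moved in opposite directions on both platforms. B4galt1, of glycoproteins, read 12.2, 9.80 and 9.93 against 2.88, 1.70 and 2.49 on CL (log2 change -2.20, SE 0.260) and 2030, 1881 and 1728 against 311, 238 and 409 on Affy (log2 change -2.59, SE 0.286). B4galt6, which makes the glycolipid lactosylceramide, was at least 2.33-fold higher on CL and read 232, 233 and 116 against 2181, 2022 and 2055 on Affy (log2 change 3.50, SE 0.397). All 4 Affy probe sets for B4galt6 were called higher, and the groups overlapped for neither gene. Chst2, a sulfotransferase of sugars, rose by 3.96 on CL (adjusted p = 5.38e-07) and changed by 0.09 on Affy (adjusted p = 0.875).

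Keratin, junction and adhesion genes of epithelia were called at 2 higher and 8 lower of 55 on CL, and 3 higher and 2 lower of 59 on Affy, with a median of -0.21 on each platform. Prom2, a protein of plasma membrane protrusions, read 2938, 3709 and 3282 in placebo pools and 13690, 15150 and 15840 in T pools on Affy (log2 change 2.17, SE 0.219), and rose by 0.92 on CL. Krt79, a keratin, was called higher on both (2.33 and 1.42) and lost its Affy call without placebo pool 1 (adjusted p = 0.0777). Cldn8, a tight junction protein, fell on both, with 1598, 1390 and 1773 against 551, 465 and 463 on Affy (log2 change -1.69, SE 0.206) and a change of -1.94 on CL. The other 7 lower members on CL (Ctnna1, Ctnnb1, Dsc2, Epcam, Krt19, Ocln and Prom1) were tested on Affy and, by brightest probe set, not called there, while 1 of 2 probe sets for Ctnna1 was called lower. All of these but Prom1 lost their CL calls on leaving out at least 2 of the pools in turn, and all T pools of Krt19 were near background. Epcam, a surface protein of epithelia, changed by -0.80 on CL (adjusted p = 0.0159) and by -0.01 on Affy (adjusted p = 0.989). With placebo pool 1 left out, the list had 4 lower members on CL, and 1 higher and 1 lower on Affy.

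Growth factor, hedgehog and BMP genes were called at 9 higher and 3 lower of 48 on CL, and 3 higher and 4 lower of 63 on Affy. Nrg4, a ligand of the ErbB4 receptor, read 3.69, 5.49 and 5.26 against 29.4, 31.3 and 27.9 on CL (log2 change 2.64, SE 0.211) and 232, 278 and 325 against 1132, 1215 and 1036 on Affy (log2 change 2.03, SE 0.260). Bmp6, a bone morphogenetic protein, was near background in all placebo pools and at least 6.08-fold higher on CL and 6.04-fold on Affy. Gdf5, of the same family, fell to near background in all T pools, at least 3.55-fold on CL and 6.60-fold on Affy. Pdgfra, the platelet-derived growth factor receptor of fibroblasts, fell by 1.01 and 1.57. Igfbp5, which binds insulin-like growth factors, read 3958, 4272 and 3115 against 1169, 1195 and 1091 on Affy (log2 change -1.70, SE 0.283). The groups did not overlap for any of these 5 genes.

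Other members were called on CL without a call on Affy. Fst, follistatin, which binds activins, was at least 28.8-fold higher on CL and changed by 0.35 on Affy (adjusted p = 0.449). Chrd, chordin, which binds BMPs, was at least 10.4-fold higher on CL and was not called on Affy (log2 change 1.33, adjusted p = 0.0679). Ptch1, the hedgehog receptor, rose by 6.36 on CL and changed by -0.47 on Affy (adjusted p = 0.471). Tgfa and Vegfa rose on CL (2.16 and 0.84), and Tgfb2 was at least 2.25-fold higher there. Which platform reads these genes correctly cannot be told from the signals.

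Matrix genes were lower more often than higher, with 8 lower and 2 higher of 47 on CL and 4 lower and 1 higher of 57 on Affy. Postn, periostin of the fibroblast matrix, read 7.52, 7.98 and 7.47 against 4.10, 3.28 and 2.06 on CL (log2 change -1.34, SE 0.245) and 1983, 1591 and 2026 against 701, 730 and 858 on Affy (log2 change -1.29, SE 0.208). Mmp3, a matrix protease, fell by 2.07 and 2.05, and Lum, a collagen-binding proteoglycan, by 2.46 and 1.19. Col5a1, a fibril collagen, was called higher on both platforms, at least 1.5-fold on CL and by 1.66 on Affy, where 9 of 15 alternatives lost the call, among them leaving out placebo pool 2 or 3 or T pool 2 or 3. Without placebo pool 3, Lum was called on neither platform and Mmp3 on CL only. Lum also lost its CL call without placebo pool 2 and its Affy call without T pool 2, and Mmp3 its Affy call without T pool 3. The T pools of Postn, Mmp3 and Lum lay below all placebo pools on both platforms. With placebo pool 1 left out, 2 members were higher and 5 lower on CL, and 2 higher and 3 lower on Affy.

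Cell cycle genes were called at 5 higher and 1 lower of 45 on CL, and 2 higher and 1 lower of 58 on Affy. Cdc45, a part of the replicative helicase, rose by 2.26 on CL and was at least 5.02-fold higher on Affy, where its placebo pools were near background. It was the only member called on both platforms. Anln, Cenpa and Tyms, of cytokinesis, centromeres and thymidylate synthesis, rose on CL (3.57, 2.97 and 1.26), as did Cdc25b, of mitotic entry, at least 3.58-fold, and none was called on Affy. Leaving out placebo pool 1 left 0 lower members on each platform.

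Respiratory chain genes of mitochondria were called at 5 higher and 0 lower of 65 on CL, and 4 higher and 1 lower of 73 on Affy. Ndufc2, a subunit of complex I, read 82.0, 63.0 and 72.5 against 245.8, 244.9 and 309.8 on CL (log2 change 1.88, SE 0.232) and 6329, 5765 and 6671 against 19340, 19730 and 26920 on Affy (log2 change 1.80, SE 0.188), without overlap. Cycs, cytochrome c, rose by 0.80 and 1.15, and lost its CL call without placebo pool 3 or T pool 2. Leaving out placebo pool 1 gave 3 higher on each platform and 0 lower. The median of the list was 0.20 on CL and 0.13 on Affy. Cytosolic ribosomal protein genes served as a reference, with 1 higher and 1 lower of 54 on CL and 2 higher and 1 lower of 42 on Affy. Their medians were -0.07 and 0.11, and 0 were higher on Affy without placebo pool 1.

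Over all these lists, 75 members were higher and 67 lower on CL, and 79 higher and 55 lower on Affy, with each gene counted once. These totals have no share of their own and are not a result about the lists. The plot of called members shows the share of each list beside that of all genes. The kallikreins stood at 62.5% higher on CL and 77.8% on Affy, and the secretory proteins at 20.0% and 35.3%.

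**Figure D4:**
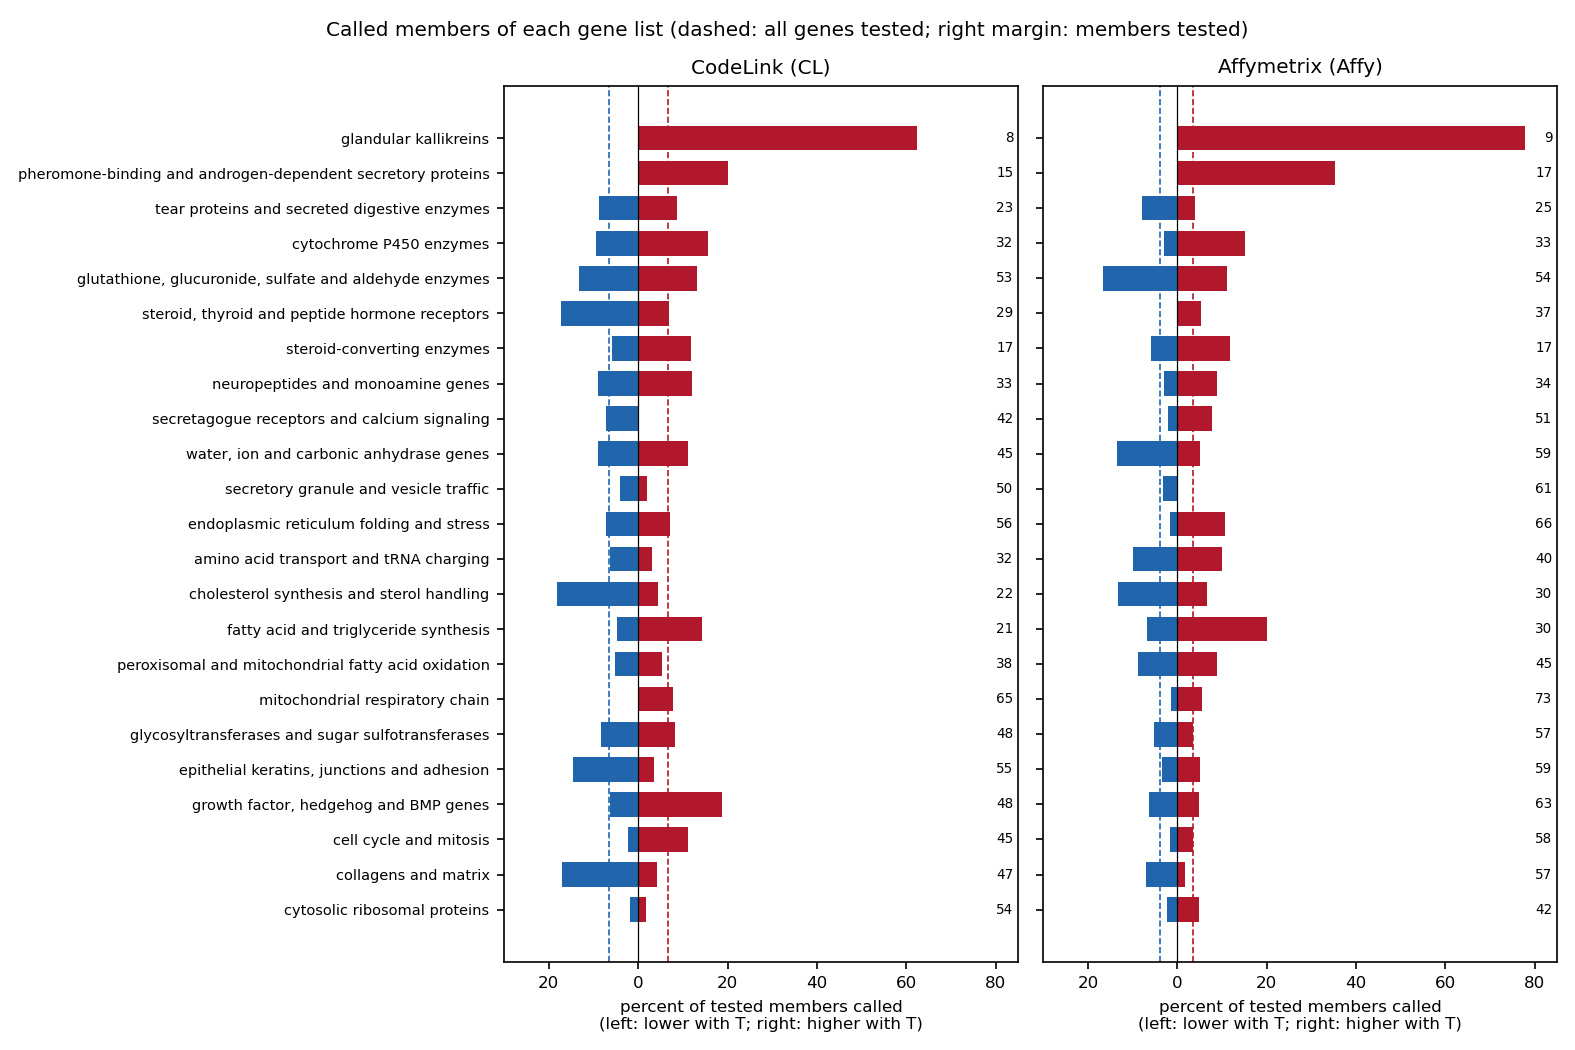
Percent of the tested members of each gene list that were called higher (red, right) or lower (blue, left) with T on CL and on Affy, with the number tested at the right margin and dashed lines at the percent of all genes tested. The kallikrein bars reach furthest from 0 on both platforms, followed by those of the androgen-dependent secretory proteins to the right.

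Markers of other cells moved alongside these results. The summed signal of B cell and plasma cell markers was 71550 to 89230 in placebo pools and 33220 to 42460 in T pools on Affy, with 0 of 16 members higher and 4 lower, or 1 lower without placebo pool 1. That of macrophage and dendritic markers was 25600 to 29640 against 15590 to 21720. Of its 18 members 0 were higher and 4 lower, or 2 lower without placebo pool 1. That of T cell markers was 2412 to 3559 against 1472 to 2253. Of its 14 members 0 were higher and 1 lower, or 0 lower without placebo pool 1. Adipocyte markers summed to 6249 to 7740 against 3223 to 4308 on Affy and to 76.3 to 93.4 against 39.9 to 53.1 on CL. Duct and myoepithelial markers summed to 11190 to 14170 against 6618 to 6787 on Affy, with 0 of 13 members higher and 2 lower, Acta2 and Myh11. In each of these sums all T pools were below all placebo pools. On CL the T cell sums overlapped (26.0 to 36.6 against 24.4 to 37.8), and those of B cell and plasma cell markers (221 to 357 against 166 to 193) and of macrophage markers (161 to 204.5 against 104 to 149) did not. Of the B cell and plasma cell markers 1 of 13 was higher on CL and 5 lower, or 1 and 3 without placebo pool 1. The higher one, Pou2af1, rose by 4.08 there under a call that no alternative lost. On Affy it changed by -1.14 and was not called. Lower members of this list were 38.5% on CL and 25.0% on Affy, against 6.44% and 3.83% of all genes. Adipoq, the adipokine that defines fat cells, was measured in every pool and was lower in each T pool (589 to 626 against 257 to 513 on Affy) without being called. Lpl, the lipase of fat and muscle, was called lower on Affy and lost its call without placebo pool 1 (adjusted p = 0.0607).

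Acinar markers summed to 324100 to 388300 in placebo pools and 310000 to 339500 in T pools on Affy, where the ranges overlapped, with 0 of 14 higher and 1 lower. On CL they summed to 1225 to 1588 against 958 to 1011, without overlap, with 0 of 8 higher and 2 lower. Harderian gland and meibomian markers were low throughout and summed to 242 to 294 against 661 to 1122 on Affy and 4.87 to 6.53 against 10.6 to 16.2 on CL. Of these, Scd3 and Acsbg1 were called higher on both platforms, and Cidea and Pparg lower on CL. Without placebo pool 1, 1 was higher and 1 lower on CL. The part that cell composition had in the changes of the lipid, matrix and epithelial genes was not tested.

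**Figure D5:**
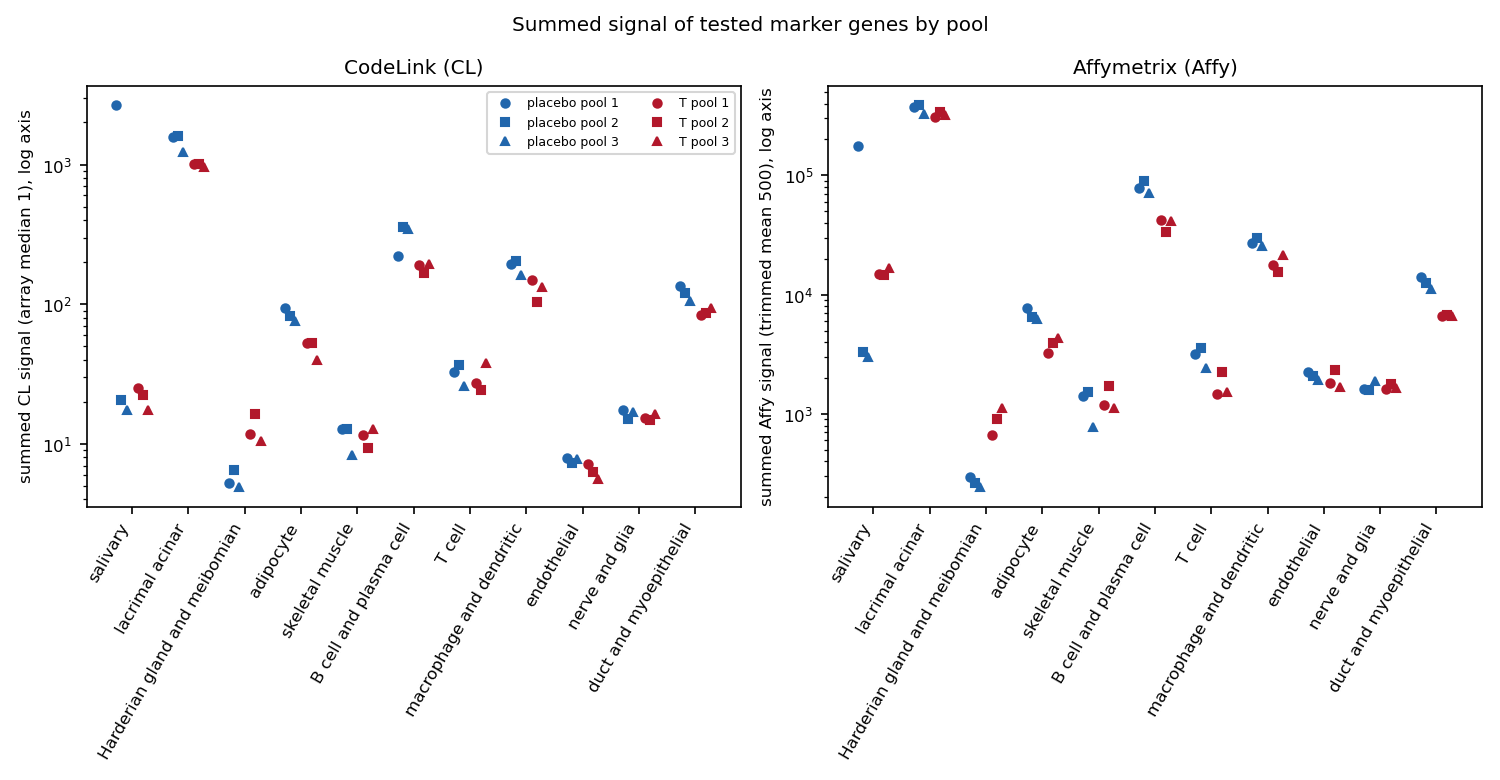
Summed signal of the tested members of each marker list in each placebo pool (blue) and T pool (red) on CL (left) and Affy (right), on log axes. Placebo pool 1 is far above the other pools for salivary transcripts, T pools lie below placebo pools for B cell, macrophage and adipocyte markers, and acinar markers overlap on Affy.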

How the data were processed

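RNA of MRL/lpr lacrimal gland pools was measured on CL and Affy arrays. The deposited CL intensities had been divided by each array's median by the authors' software, which also marked spots. The deposited Affy intensities are probe set signals that, per the methods, had been scaled to a trimmed mean of 500, with GCOS named in the processing notes. The deposited arrays were not at that scale, so each was multiplied to it here, trimming 2% of probe sets at either end. CL spots marked contaminated, irregular or masked were left out, and saturated spots were kept. Of 20287 CL spots per array, 2847 have no entry in the value table and were not used.

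Signals were raised to a floor (0.5 on CL, 70.5 on Affy, which is 0.5 of the platform's median) and log2 values taken. A probe was kept when its mean exceeded the floor in 1 or more of 4 groups. limma 3.58.1 (R 4.3.3; lmFit, eBayes with trend) fitted the 4 group means, NOD groups included, on all 12 arrays of a platform, and T minus placebo in MRL/lpr was tested, with p-values adjusted over all probes by Benjamini and Hochberg. A bound on a fold compares the mean log2 signal of the bright group with that of the dim group, in which each array takes its lowest signal above background or the gene's own signal, whichever is higher. Scripts ran in Python 3.11.15, pandas 2.3.3 and numpy 2.4.6. The test was tested on simulated data. The alternatives were other floors, filters, scalings, background corrections, fits and leaving out each pool, and the methods' test on signals without logs.

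Groups come from the sample labels. The number of arrays limits the precision. Each SE and p-value rests on the spread between pools within all 4 groups of a platform, NOD groups included. They do not measure the spread of the MRL/lpr pools alone. Pool numbers only name the pools. Promoters are those of RefSeq (GRCm38.p6). The named genes are, for each platform, the 10 largest called rises and falls among genes whose groups do not overlap, from each list as many as 4 members, by smallest adjusted p on either platform, the marker lists and the 10 largest changes shared by both platforms, with an item that is not reported here. Of these the text describes those with a role in the lists. Other genes were named after their values were seen. The members and lists were chosen with earlier results of these data known.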

Additional observations from a re-analysis of the deposited data

How the results depend on the processing

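No gene value called with all pools changed sign under an alternative. Klk1b5 on CL, not called with all pools (log2 change -0.69), was 1.79 and called without placebo pool 1, and ran from -2.02 to 1.79 over the pools left out in turn. Of 284 gene values called, 144 stayed called under every alternative run. Calls of the report that were lost when at least 1 pool was left out were those of Aldh7a1, Cidea, Crat, Ctnna1, Ctnnb1, Cycs, Dhcr7, Dsc2, Epcam, Fxyd3, Gstm1, Gstt1, Krt19, Lum, Mgst1, Mgst2, Nr1h3, Nr2f1, Nr4a1, Ocln, Pigr, Scd3, Sult1a1 and Thrsp on CL. On Affy they were those of Abcd3, Acaa2, Acadvl, Aldh7a1, Car12, Car5b, Cars, Col5a1, Crat, Crot, Cyp11b2, Derl3, Fmo1, Fxyd3, Gsta4, Gstm1, Gstt1, Hsd17b6, Klk1b16, Krt79, Lars, Lcn2, Lpl, Lum, Mmp3, Npy, Nr4a1, P2rx4, Qars, Rgs16, Scd1, Sec11c, Slc7a8, Sqle, Stim1, Sult1a1 and Xbp1. The highest adjusted p of each ran from 0.0518 (Crat on Affy) to 0.189 (Fmo1 on Affy). The other calls described in the report held with each pool left out. Of genes not described, Sema4g on CL and 2310057J18Rik on Affy, among the largest changes, lost theirs too. So did others, such as Cd14, Cd3g, Cryab and Rps14 on CL. On Affy they included Cd3d, Mpeg1, Mrc1, Msr1, Prdm1, Rpl37 and Vwf.

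The counts of probes moved more. On CL, 938 were higher and 769 lower. Leaving out each pool in turn gave 743 to 877 higher and 459 to 675 lower, with the lowest lower count without placebo pool 2. The methods' test gave 1679 higher and 1638 lower at its unadjusted threshold, and 388 and 280 after Benjamini-Hochberg. With the pool number as a replicate block, 760 were higher and 489 lower on CL, and 501 and 499 on Affy. Pool numbers only name the pools, since deviations of same-numbered pools correlated at -0.0497 to 0.0231 and those of other pools at up to 0.0791.

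On Affy, 594 were higher and 640 lower. Leaving out each pool gave 327 to 638 higher and 326 to 539 lower. MRL/lpr arrays alone gave 925 and 1073. Each array scaled to its own median gave 347 higher and 532 lower, a share of 39.5% higher in place of 48.1%. The signals as deposited, on which the median probe fell by 0.26, gave 48 and 47. The methods' test gave 1636 and 1839, and 119 and 101 after adjustment. The counts were 370 and 339 without placebo pool 1. They were 327 and 326 when placebo pool 2 was left out, and 347 and 383 for placebo pool 3. For T pools 2 and 3 they were 398 and 379, and 392 and 410.

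Of genes called on both platforms (131 higher, 155 lower), leaving out each pool gave 82 to 118 higher and 75 to 116 lower, and the replicate block 103 and 92. Called members of the lists numbered 58 to 80 higher and 44 to 66 lower on CL, and 49 to 72 higher and 37 to 46 lower on Affy, when each pool was left out. On Affy they were 86 lower in the MRL/lpr arrays alone, 50 higher with median scaling, and 17 higher and 6 lower as deposited. The other alternatives kept these counts within 1.5 times.

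The causes of these shifts were not tested. Precision is limited by 3 pools a group, by the near-background share of CL spots, by the overlap of sequences within families, and by signals at the floor, which understate changes. The part of other tissue in placebo pool 1 and of cell composition was not tested.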

Other observations

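Some further genes outside the lists changed on both platforms, and all were chosen after their values were seen. Fkbp5, a chaperone of steroid receptors that is raised by glucocorticoids and androgens in many tissues, rose by 2.22 on CL and 2.59 on Affy. Pgf, placental growth factor, was near background in placebo pools on CL and at least 18.6-fold higher with T, and rose by 4.12 on Affy. Sgk3, a kinase of the phosphoinositide pathway, was at least 2.84-fold higher on CL and rose by 3.52 on Affy. Aldh1l1, of folate metabolism, rose by 2.97 and 4.03. Aox3, an aldehyde oxidase, fell by 2.53 and 2.27. Asgr1, a receptor of desialylated glycoproteins, fell by 3.92 and 4.19, and Abcb1a, a drug exporter, was at least 4.15-fold lower on CL and fell by 2.62 on Affy. The T and placebo pools did not overlap for any of these genes on either platform.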
